A study of Danio rerio with 28 samples.

Results

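Complement genes transcribed in the zebrafish liver were followed as 10 genes chosen by name. They were the C3 genes c3a.1, c3a.2 and c3a.3, the C4 gene c4b, the terminal components c5, c8a and c9, the alternative pathway protease factor B (cfb), and the regulators factor H (cfh) and factor I (cfi). Of the 10, 9 had a row among the 27652 gene rows of the 28 libraries, and cfi was not analysed here. Each value below is a level: the unique molecular identifiers (UMIs, 1 per captured 3′ end) of a gene, summed over the cells of 1 type in 1 library, as counts-per-million (CPM) of that sum.

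Complement is a cascade of plasma proteins, most of them secreted by hepatocytes, that tags microbes and damaged cells for uptake or lysis. C4 and C3 are cleaved and attach to the target surface, factor B supplies the protease of the convertase that amplifies C3 cleavage, and C5 to C9 build the membrane attack complex. Factors H and I limit C3 activation on host cells. In humans, C3, factor B and C9 are among the acute-phase genes that hepatocytes raise during inflammation.

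The study asked whether biliary epithelial cells (BECs) of the adult zebrafish liver can become hepatocytes. Dissociated livers were profiled by Drop-Seq, which captures the mRNA of single cells on barcoded beads in droplets (scRNA-Seq). All live nucleated cells were taken from 6 libraries of uninjured wild-type TU adults. The paper describes these fish as male, and names both sexes as its default elsewhere. The other 22 libraries came from adults that carried the transgene Tg(Tp1:CreERT2) together with the ubiquitous switch reporter Tg(-3.5ubb:LOXP-EGFP-LOXP-mCherry) and with Tg(fabp10a:CFP-NTR). Cre driven by a Notch-responsive element marks BECs and their descendants with mCherry after 4-OHT, while the hepatocyte promoter fabp10a expresses a nitroreductase that makes hepatocytes sensitive to metronidazole (MTZ). From these fish, mCherry+ cells were sorted from uninjured animals, from mock-treated animals and after ablation on days 0 to 3 and on day 7 (dpa, days postablation), with 3 libraries for each condition, and GFP+ cells from uninjured animals gave 1 library. Ablation was a 16-hour exposure to MTZ. The mCherry+ sorts were not pure: those of uninjured fish held 1743 lymphocyte-like and 39 hepatocyte-like cells, those of the mock group 100 hepatocyte-like cells and those at 1 dpa 1197 macrophage-like cells. The origin of single cells was not tested, and 1 GFP+ library gives no replicate error. The sources do not say which libraries came from separate animals, so p-values measure the spread between libraries, which may be technical.

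Libraries held 926798 to 7296066 UMIs and 661 to 1566 called cells, with a median of 435 to 4038.5 UMIs per cell. Cells were named from marker genes, with the complement genes kept out of clustering and naming. A state joins time and type, so that 3dpa.HC stands for hepatocyte-like and 3dpa.BEC for BEC-like mCherry+ cells at 3 dpa. The summed level of 10 hepatocyte markers was 72250 to 94210 CPM in hepatocyte-like cells of the TU livers and 1859 to 2534 CPM in BEC-like cells of the mock group. These markers also named the cells, so this is a description. Barcodes that were not called as cells are the background: they are taken to hold mostly free RNA, and their level is given for some genes and comparisons only. The limit below which a barcode was background was 185 to 207 UMIs in mock libraries. It was 1158 to 1379 UMIs at 3 dpa and 742 to 839 UMIs at 7 dpa. Cells of low depth below the limit were not told apart from free RNA. Depth, the number of cells and background levels all differed between states, and their part in the results was not tested unless a value is given.

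In uninjured TU livers the 9 genes together took 1.37% to 3.42% of all UMIs of hepatocyte-like cells (median 2.18%, n = 6 libraries). The C3 gene c3a.1 was the highest, at 5546 to 13183 CPM with a median of 8279.9 CPM, and made up 39.1% ± 2.32 (SD, n = 6) of the members' UMIs. Factor B came next, with cfb at 2679 to 7266 CPM and a median of 4636 CPM, and then the pore-forming c9 at 1804 to 4786 CPM with a median of 3033 CPM. These 3 genes led in that order in each of the 6 libraries, although each varied more than 2-fold between libraries, so that neighbours in the order overlapped across libraries.

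The remaining members were lower. The regulator cfh lay at 909.6 to 2505 CPM with a median of 1371 CPM, c3a.3 at 841 to 2077 CPM with a median of 1326 CPM, and c3a.2 at 269 to 1500.3 CPM with a median of 1086 CPM. c4b was found at 606 to 1659.8 CPM (median 779 CPM), c5 at 281 to 803 CPM (median 521 CPM) and c8a, a chain of the membrane attack complex, at 243 to 570.5 CPM (median 411 CPM). The ranges of cfh, c3a.3, c3a.2 and c4b overlapped each other, as did those of c5 and c8a, and the order within these groups does not exceed the spread. The range of c3a.2 also overlapped those of c5 and c8a, and that of c4b overlapped that of c5, so these groups were not separate. In the RefSeq annotation c3a.1 lies beside c3a.5 and c3a.6, c3a.2 beside c3a.3, c8a beside c8b, cfb beside bfb and cfbl, and cfh beside cfhl1, cfhl2, cfhl4 and cfhl5. Reads could be split between such related neighbours, and the levels of single copies are uncertain to that extent.

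**Figure D1:**
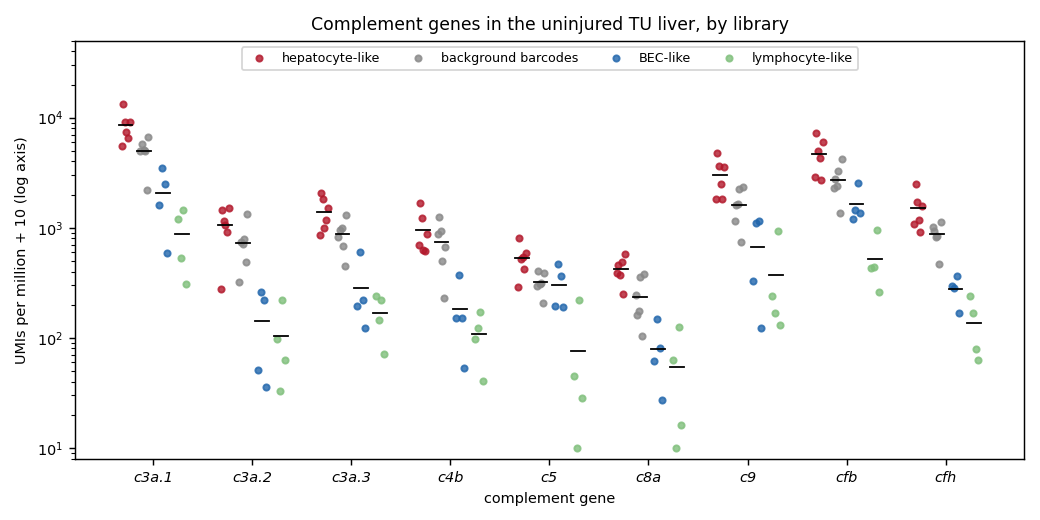
Levels of the 9 complement genes in uninjured TU livers, in CPM plus 10 on a log axis, by cell type. Each point is the sum over 1 library (at least 10 cells) and each bar a mean; c3a.1 is the highest gene in hepatocyte-like cells, and the background means lie between those of hepatocyte-like and lymphocyte-like cells for each gene.

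Which cell type carried these transcripts was asked by setting hepatocyte-like sums against the mean of the other named types, with library as a block. All 9 members were higher in hepatocyte-like cells, where 15.3% of the 3391 genes tested were higher and 3.77% lower, by 2.33 (c8a) to 3.23 (c3a.2) on the log2 scale, and the median was 2.54 against 0.24 over all genes tested. For c3a.1 the difference was 2.85 ± 0.44 (SE, log2) with an adjusted p of 8.55e-06, and for cfb it was 2.43 ± 0.41 with an adjusted p of 1.52e-05 (edgeR quasi-likelihood test, Benjamini-Hochberg adjustment, here and below). Without uninjured replicate 5 the calls for c4b (log2 0.94, adjusted p = 0.218) and c9 (log2 1.70, adjusted p = 0.0602) were lost. Against background barcodes of the same libraries, 7 of 9 members were higher (5.74% of 7398 genes were, and 55.7% were lower), by 0.52 to 0.80 on the log2 scale. The members without a call were c3a.2 (0.32, adjusted p = 0.125) and c4b (0.26, adjusted p = 0.248). Both were called higher with default TMM (1.19, adjusted p = 0.000435, and 1.13, adjusted p = 0.000827) and with DESeq2 (1.26, adjusted p = 1.93e-08, and 1.19, adjusted p = 7.18e-07). c3a.2 was also called with library size only (0.50, adjusted p = 0.0332). With default TMM and DESeq2, 2022 and 2074 of 7398 genes were higher, against 425 with the scaling used. The background held c3a.1 at 2208 to 6703 CPM, cfb at 1347 to 4178 CPM and c9 at 727 to 2342 CPM. The groups overlapped for all 9, and the median of all genes in that comparison was -0.88. The call of c3a.3 was lost without uninjured replicate 2, 3 or 5 (adjusted p = 0.0593, 0.0641 and 0.0933), and that of cfh without uninjured replicate 2 (adjusted p = 0.0502). With cells named from raw counts, the call of c5 was lost (adjusted p = 0.0883).

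Member UMIs were also frequent outside hepatocyte-like cells in these livers. For shares of cells, here and below, cells of at least 500 UMIs were thinned to 500 and shallower cells were left out. c3a.1 was detected in 71.7% to 97.2% of such hepatocyte-like cells. It was also detected in 13.3% to 43.8% of such lymphocyte-like cells, which should lack the gene. Unthinned, the median shares were 99.7% and 63.2%, at median depths of 3057 to 5940 and 1049 to 1664 UMIs per cell. Low levels of a member in other cell types of the TU livers are therefore not read as expression.

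c4b was the exception among cell types. In the 3 libraries with at least 10 stellate-like cells, c4b stood at 2360.3, 4161 and 2808 CPM in stellate-like cells and at 685, 623 and 606 CPM in hepatocyte-like cells of the same libraries. The stellate-like values lay above all 6 hepatocyte-like values, the highest of which was 1659.8 CPM. Against the mean of the other types, c4b was higher in stellate-like cells by 4.18 ± 0.56 on the log2 scale (adjusted p = 1.34e-07). None of the other 8 members passed the test in this cell type, with log2 differences from -0.74 (c9) to 0.97 (c3a.2). The 5 stellate markers, among them hand2 and lrata, summed to 2797 to 3435 CPM in these cells and to at most 12.3 CPM in hepatocyte-like cells, while the hepatocyte markers summed to 8973 to 42220 CPM in the stellate-like sums. The number of c4b UMIs per UMI of c3a.1, computed after the values had been seen, was 1.08 to 8.50 in the 3 stellate-like sums and 0.0845 to 0.131 in hepatocyte-like cells of the 6 libraries. c4b was also at 1242 and 744 CPM in the 2 fibroblast-like sums, which rest on 17 and 13 cells. The stellate-like sums rest on 11, 19 and 17 cells.

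**Figure D2:**
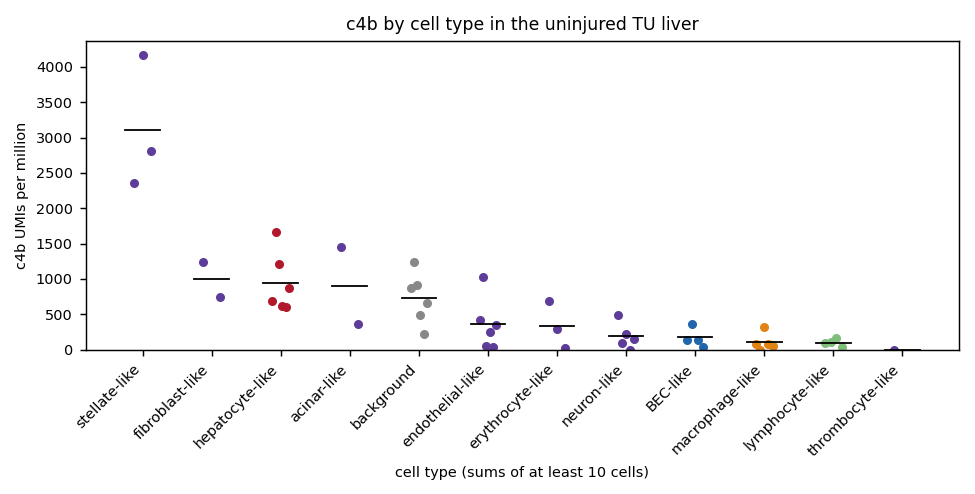
c4b level by cell type in uninjured TU livers, in CPM on a linear axis. Each point is 1 library with at least 10 cells of the type and each bar a mean; the 3 stellate-like sums (2360.3 to 4161 CPM) lie above all other points.

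Of 50 other complement pathway genes listed, 36 had rows. In hepatocyte-like cells against other types, 27 were tested and 17 were higher, with none lower (15.3% and 3.77% of all genes). The largest differences were those of c8b (log2 3.40 ± 0.53), the partner chain of c8a, serping1 (3.32 ± 0.51), the C1 inhibitor, the factor H-like gene cfhl1 (3.29 ± 0.61) and c7b (3.14 ± 0.56), a terminal component, with adjusted p-values of 2.09e-06, 2.28e-06, 3.2e-05 and 1.59e-05. Against background, 13 of 26 were higher and 5 lower (5.74% and 55.7% of all genes), and the 4 largest differences were lower: cfd (-5.53), c1qb (-4.74), itgb2 (-4.39) and c1qc (-4.07). C1q chains and the integrin itgb2 are made by macrophages and other leukocytes.

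The same genes were found in sorted hepatocyte-like cells of the uninjured transgenic fish. In the GFP+ library, which holds 1128 hepatocyte-like cells, c3a.1 was at 2402 CPM, cfb at 1029 CPM, c3a.2 at 695 CPM, c3a.3 at 692 CPM, c9 at 633 CPM, cfh at 552 CPM, c4b at 272 CPM, c5 at 234 CPM and c8a at 130.4 CPM. The few hepatocyte-like cells of uninjured mCherry+ sorts (10 to 17 per library) had c3a.1 at 1962, 2096 and 2158 CPM, cfb at 1242, 1143 and 1177 CPM and c9 at 523, 572 and 327 CPM. Those of the mock group (32 to 34 per library) had c3a.1 at 5303, 4979.8 and 3671 CPM, cfb at 1554, 2243 and 1479.6 CPM and c9 at 1006, 538 and 739.8 CPM. c3a.1 did not overlap between these sorts. In the GFP+ library all 9 members were below background, with ratios of 0.711 (cfb) to 0.944 (c9) and background c3a.1 at 3004 CPM. In the mock libraries all 9 were above background in hepatocyte-like cells, c3a.1 by 2.95 to 4.31 times, and c3a.1 of the uninjured mCherry+ sorts was 2.77 to 2.95 times its background. These are ratios of CPM without further scaling. The share of all genes above or below background was not counted here, so the counts of 9 are not read as a trait of the members. TU and transgenic livers differ in genotype and sort and may differ in sex, and these cannot be told apart.

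In the BEC-like sums before injury, c5, c3a.1 and cfb were counted at over 100 CPM in every library. c5, the precursor of the anaphylatoxin C5a and of the membrane attack complex, was at 287, 343 and 318 CPM in uninjured and at 318, 228 and 188 CPM in mock BEC-like cells. Hepatocyte-like cells of the single GFP+ library had c5 at 234 CPM, which is below the range of TU hepatocyte-like cells given above. cfb was at 415, 455 and 489 CPM in uninjured BEC-like cells and at 242, 130.4 and 117 CPM in mock.BEC, and these groups did not overlap. c3a.1 was at 398, 309 and 311 CPM in uninjured and at 333, 432 and 370.4 CPM in mock BEC-like cells. These c3a.1 levels were 0.399 to 0.570 times background in the uninjured and 0.270 to 0.337 times in the mock libraries. For cfb the median ratio to background was 0.197 in mock. The part of free RNA in these levels was not tested. The highest value of the other 6 members in these 6 sums was 118 CPM, that of c9 in uninjured replicate 1.

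c5 was not among the members below background. In the mock libraries 8 of 9 members were lower in BEC-like cells than in background barcodes (24.8% of 8495 genes were lower and 8.99% higher), by 2.37 to 3.49 on the log2 scale. c5 was at 155, 158 and 128 CPM in that background, below each BEC-like value, yet after scaling the difference was -0.10 ± 0.21 (adjusted p = 0.761), and scaled by library size alone it was higher in BEC-like cells (log2 0.73, adjusted p = 0.00377). Thinned to 500 UMIs, c5 was detected in 11% to 15.2% of mock BEC-like cells and in 0.709% to 2.13% of lymphocyte-like cells of the same libraries, at median depths of 738 to 962 and 703 to 715.5 UMIs. Unthinned, the median shares were 20.0% and 2.27%. Both kinds of share cover 284 BEC-like and 414 lymphocyte-like cells, with 228 and 294 shallower cells left out. The ratio of c5 to c3a.1 UMIs within a library, computed after the values had been seen, was 0.509 to 0.955 in mock.BEC, 0.0603 to 0.108 in mock.HC and 0.103 to 0.126 in the background.

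At 0 dpa, directly after MTZ, the levels of c3a.1, c3a.2, c5 and cfh in BEC-like cells were below those of the mock group. c3a.1 was at 333, 432 and 370.4 CPM in mock.BEC and at 217, 269.6 and 295 CPM in 0dpa.BEC, without overlap. The change was -0.89 ± 0.20 on the log2 scale (adjusted p = 0.000142), a call lost with default TMM (adjusted p = 0.154) and DESeq2 (adjusted p = 0.107). c3a.2 went from 30.3, 48.9 and 26.0 CPM to 5.16, 6.13 and 0 CPM (log2 -3.54 ± 0.89, adjusted p = 0.000837, on 14 and 2 UMIs). The C4 gene c4b went from 75.6, 24.5 and 26.0 CPM to 0 UMIs in all 3 libraries. In c4b, 0 of 550178 UMIs allows a level of up to 5.45 CPM over the group, so mock.BEC was at least 7.63-fold higher, or at least 4.64-fold without mock replicate 1, which held 10 of the 17 UMIs. c5 (log2 -0.74 ± 0.24, adjusted p = 0.0116) overlapped between the groups, at 222, 208 and 129 CPM at 0 dpa. Its call was lost with library size only (adjusted p = 0.27), default TMM (adjusted p = 0.473), DESeq2 (adjusted p = 0.428) and only the compared states (adjusted p = 0.189).

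Factor H was at 60.5, 89.7 and 32.5 CPM in mock.BEC and at 25.8, 24.5 and 20.7 CPM at 0 dpa (cfh log2 -1.66 ± 0.51, adjusted p = 0.00902). Including c4b, 5 of 9 members were lower and 0 higher, where 17% of the 7840 genes tested were lower and 5.26% higher. In a fit of just the compared states, 3 members passed the filter on low counts and 1 was lower. cfb did not pass the test: 212, 239 and 217 CPM at 0 dpa gave a log2 change of 0.10 ± 0.25 (adjusted p = 0.827), and it was higher with DESeq2 (log2 0.59, adjusted p = 0.0471) and in cells of at least 500 UMIs (log2 0.88, adjusted p = 0.0146). Over all genes tested the median was -0.52, and other scalings gave fewer lower members, namely 3 with library size only, 2 with edgeR's default TMM and 2 with DESeq2. Of all 7840 genes, 755, 607 and 588 were lower under these scalings, against 1333 with the scaling used. The fall of c5 was lost without mock replicate 1 (adjusted p = 0.267) or 0dpa replicate 3 (adjusted p = 0.128), and that of cfh without mock replicate 2 (adjusted p = 0.146), with library size only (adjusted p = 0.0561), default TMM (adjusted p = 0.102), DESeq2 (adjusted p = 0.0767) and in cells of at least 500 UMIs (adjusted p = 0.0751).

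Background fell over the same step. c3a.1 was at 1231, 1282 and 1244 CPM in the mock background and at 217, 165 and 199 CPM in that of 0 dpa. At 0 dpa, c5 was 1 of 9 members higher in BEC-like cells than in background, at 222, 208 and 129 CPM against 37.6, 34.9 and 29.2 CPM, while 6 were lower (9.36% and 25.4% of 8495 genes). The c5 difference was 1.47 ± 0.30 on the log2 scale (adjusted p = 7.34e-06). Without 0dpa replicate 1 the calls of c3a.1 (adjusted p = 0.267), c3a.3 (0.209) and c8a (0.181) were lost, which left 4, and c3a.1 turned to 0.42 by library size only. The c3a.1 call was also lost with default TMM (adjusted p = 0.464) and DESeq2 (adjusted p = 0.887). In CPM, c3a.1 was 0.999 to 1.634 times background. Library size only gave 3 members higher and 3 lower, where 2090 of 8495 genes were higher and 954 lower. DESeq2 gave 1 higher and 3 lower, where 1278 genes were higher and 1186 lower.

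At 1 dpa the C3 and C5 transcripts of BEC-like cells reached their lowest levels of the course. c3a.1 was at 82.0, 55.3 and 53.9 CPM and c5 at 23.8, 31.4 and 37.7 CPM, each without overlap with 0 dpa. The changes were -2.20 ± 0.21 for c3a.1 (adjusted p = 5.89e-24) and -2.76 ± 0.26 for c5 (adjusted p = 1.3e-24) on the log2 scale. c3a.3 also fell, from 10.3, 36.8 and 15.5 CPM to 6.61, 2.99 and 8.08 CPM (adjusted p = 0.0185), a call that rests on 11 and 13 UMIs and was lost without 0dpa replicate 2 (adjusted p = 0.356) or 1dpa replicate 2 (adjusted p = 0.0647), with default TMM (adjusted p = 0.129) and with no filter on low counts (adjusted p = 0.0513). Thus 3 of 9 members were lower and 0 higher, where 14.5% of 7840 genes were lower and 10.5% higher. Only 3 members passed the filter on low counts when the fit held just the compared states. Of these, 2 were lower and 1, cfb, was higher. With default TMM 2 members were higher, cfb and c4b (log2 5.55, adjusted p = 0.0198, 0 UMIs at 0 dpa and 15 at 1 dpa), as were 1996 of all 7840 genes.

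Factor B, the amplifying protease, was not lower at 1 dpa in the same cells. cfb was at 212, 239 and 217 CPM at 0 dpa and at 362, 363 and 289.7 CPM at 1 dpa, without overlap. The log2 change of 0.42 ± 0.17 did not pass the test (adjusted p = 0.055). It passed when scaled by library size only (log2 0.61, adjusted p = 0.00239), by default TMM (log2 1.08, adjusted p = 2.35e-08), with DESeq2 (log2 0.81, adjusted p = 7.65e-07), with only the compared states (adjusted p = 0.045), with top doublet scores removed (adjusted p = 0.0484) and without 1dpa replicate 3 (adjusted p = 0.0207). cfb was also higher in 1dpa.BEC than in background barcodes of the same libraries (141, 164 and 124 CPM), by 0.94 ± 0.11 on the log2 scale (adjusted p = 1.15e-15), and so was c3a.1 (0.54 ± 0.20, adjusted p = 0.0174), a call lost without 1dpa replicate 1 (adjusted p = 0.418) or 1dpa replicate 3 (adjusted p = 0.0596). In that comparison 15.1% of 8495 genes were higher in BEC-like cells and 34.1% lower. Thinned to 500 UMIs, cfb was detected in 9.94% to 16.3% of BEC-like and in 0.25% to 0.840% of macrophage-like cells, with median depths of 1654 to 1877 and 2912 to 3140 UMIs. Unthinned, the median shares were 28% and 3.18%.

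The make-up of the members' UMIs differed between the time points. cfb was 15.9% ± 5.13 of the 9 genes' UMIs in mock.BEC, 30.1% ± 0.689 at 0 dpa, 71.3% ± 3.36 at 1 dpa and 51.1% ± 0.422 at 2 dpa (SD, n = 3). c3a.1 was 37.8% ± 6.87 in mock.BEC and 13.4% ± 2.51 at 1 dpa. The ratio of cfb to c3a.1 UMIs was 0.302 to 0.727 in mock.BEC, 0.737 to 0.976 at 0 dpa, 4.42 to 6.57 at 1 dpa and 2.36 to 2.82 at 2 dpa. The background ratio was 0.495 to 0.516 in mock, 3.79 to 4.23 at 1 dpa and 2.29 to 2.75 at 2 dpa, so the ratio moved in both kinds of barcode. Such ratios do not depend on scaling between libraries, but the pairs were chosen after the values had been seen and are given with no test.

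At 1 dpa, 2 of 9 members were higher in BEC-like cells than in background and 1, the regulator cfh, was lower. c5 was also higher with default TMM (log2 0.88, adjusted p = 0.0109) and with DESeq2 (log2 0.80, adjusted p = 0.0273). Under these scalings 2446 and 1948 of 8495 genes were higher, against 1279 with the scaling used. cfh was at 15.9, 14.9 and 10.8 CPM in 1dpa.BEC and at 117, 127 and 162 CPM in the background, a difference of -3.58 ± 0.22 (log2, adjusted p = 6.3e-58). Of the cells at 1 dpa, 1197 were macrophage-like and 931 BEC-like. cfh was detected in 5.68% to 6.50% of thinned macrophage-like and in 0.333% to 1.57% of thinned BEC-like cells (unthinned medians 25.9% and 3.00%, at the depths given above). The 6 macrophage markers summed to 5816 to 6375 CPM in that background and to 463.1 to 649.5 CPM in 1dpa.BEC.

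**Figure D3:**
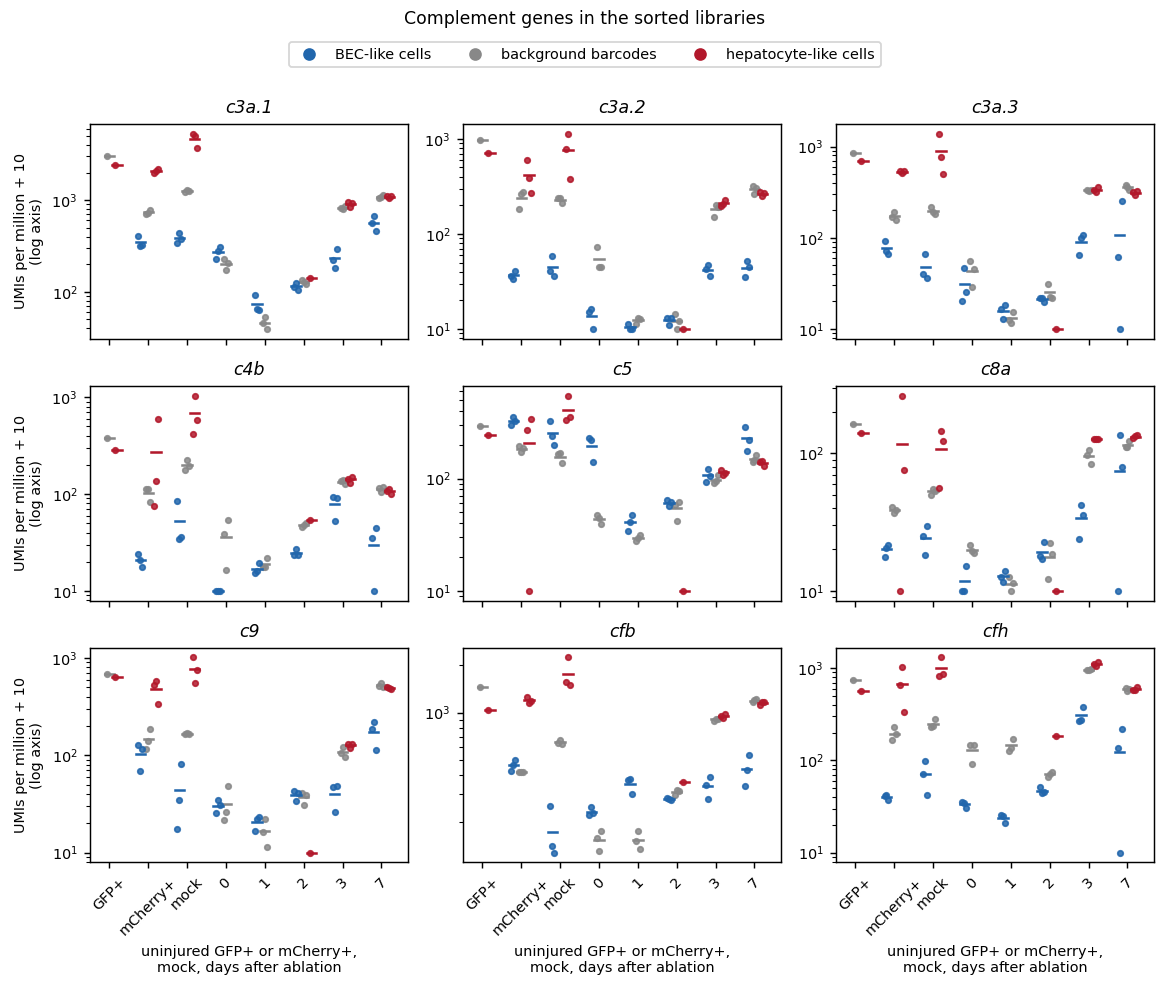
Levels of the 9 complement genes in the sorted libraries, in CPM plus 10 on log axes, for BEC-like cells, hepatocyte-like cells and background barcodes. Each point is 1 library and each bar a mean; c3a.1 and c5 of BEC-like cells are lowest at 1 dpa (53.9 to 82.0 and 23.8 to 37.7 CPM), when cfb is at 289.7 to 363 CPM, and hepatocyte-like levels at 3 and 7 dpa lie close to the background of their libraries.

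At 2 dpa, 6 of 9 members were higher in BEC-like cells than at 1 dpa and 1 was lower, where 15.1% of 7840 genes were higher and 13.3% lower. A fit of just the compared states could test 7 members, of which 5 were higher and 1 lower. c3a.1 was at 104, 115 and 94.4 CPM (log2 0.72 ± 0.17, adjusted p = 0.000122) and c5 at 54.5, 46.8 and 52.0 CPM (0.74 ± 0.22, adjusted p = 0.00355), neither overlapping with 1 dpa. The terminal components c8a (1.74 ± 0.55, adjusted p = 0.00796) and c9 (1.47 ± 0.31, adjusted p = 2.25e-05), cfh (1.43 ± 0.28, adjusted p = 3.68e-06) and c4b (1.08 ± 0.40, adjusted p = 0.0274) rose as well, from 6 to 30 UMIs per gene at 1 dpa. Of these, c9 reached 32.5, 24.2 and 30.9 CPM and cfh 41.0, 34.7 and 35.5 CPM. cfb, at 275, 272 and 266 CPM, was lower than at 1 dpa (log2 -0.30 ± 0.11, adjusted p = 0.033), a call that was lost without any 1 of 5 of the 6 libraries (adjusted p up to 0.208) and with default TMM (adjusted p = 0.686) or DESeq2 (adjusted p = 0.162). It was also lost with names from raw counts (adjusted p = 0.149) and at clustering resolution 1 (adjusted p = 0.162). With no filter on low counts the calls of cfb (adjusted p = 0.0719) and c4b (adjusted p = 0.0632) were both lost. Omitting single 1 or 2 dpa libraries also removed the calls of c4b (1dpa replicate 1, 0.143; 1dpa replicate 2, 0.1; 2dpa replicate 2, 0.0778), c5 (1dpa replicate 1, 0.0707) and c8a (1dpa replicate 2, 0.0606; 2dpa replicate 3, 0.0742), given as adjusted p.

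Compared with mock.BEC, 6 of 9 members were lower at 2 dpa and 0 higher (34.4% and 13.4% of 7840 genes). c3a.1 was lower by 2.38 ± 0.18 on the log2 scale (-2.38, adjusted p = 3.49e-37), c3a.2 by 4.25 (-4.25 ± 0.65, adjusted p = 5.56e-10) and c5 by 2.76 (-2.76 ± 0.23, adjusted p = 1.8e-32). These 3 calls held in every setting tried. The call of c3a.3 was lost with default TMM (adjusted p = 0.11), that of c4b with default TMM (adjusted p = 0.192) or without mock replicate 1 (adjusted p = 0.135), and that of cfh without mock replicate 2 (adjusted p = 0.175), with library size only (adjusted p = 0.116), with DESeq2 (adjusted p = 0.712) and in cells of at least 500 UMIs (adjusted p = 0.0844). With default TMM cfh changed sign (log2 0.15, adjusted p = 0.749). cfb gave 0.22 ± 0.21 (adjusted p = 0.395) but was higher with library size only (log2 0.74, adjusted p = 0.000741), default TMM (log2 1.56, adjusted p = 1.34e-13), DESeq2 (log2 1.25, adjusted p = 2.49e-10), only the compared states (log2 0.47, adjusted p = 0.0275), in cells of at least 500 UMIs (log2 0.91, adjusted p = 0.000823) and without mock replicate 1 (log2 0.64, adjusted p = 0.0419). The comparisons of 0, 1 and 2 dpa share libraries and are not independent of each other. In the 2 dpa libraries 3 of 9 members were lower in BEC-like cells than in background and 0 higher, with the scaling used. Of all 8495 genes 38.1% were lower, a share near that of the members, and 12.8% higher. The lower members were c4b (-1.44 ± 0.24, adjusted p = 2.04e-08), cfh (-0.77 ± 0.17, adjusted p = 1.67e-05) and cfb (-0.21 ± 0.09, adjusted p = 0.042). The call of cfh was lost with default TMM (adjusted p = 0.359) and DESeq2 (adjusted p = 0.687). The call of cfb was lost without any 1 of the 3 libraries and turned to 0.37 with default TMM and 0.33 with DESeq2. Default TMM gave 4 members higher than background and 1 lower, where 2665 of 8495 genes were higher and 1651 lower. DESeq2 gave 3 higher and 1 lower, where 1994 genes were higher and 1379 lower. Among the higher were c5 (0.72, adjusted p = 0.000318, and 0.70, adjusted p = 0.0034) and c9 (0.62, adjusted p = 0.0131, and 0.60, adjusted p = 0.0491).

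The mCherry+ sort held 2104 hepatocyte-like cells at 3 dpa, against 20 at 2 dpa, and all 9 members were higher in 3dpa.HC than in 2dpa.BEC, where 19.9% of 7840 genes were higher and 35.7% lower. cfh reached 1104, 1047 and 1167 CPM from 41.0, 34.7 and 35.5 CPM (log2 5.25 ± 0.13). c3a.2 reached 188, 198 and 215 CPM from 3.00, 1.1 and 2.96 CPM (6.62 ± 0.22), and c3a.3 325, 306 and 349 CPM from 12, 12.1 and 9.73 CPM (5.20 ± 0.16). No member overlapped between the groups, but the share of all genes without overlap was not counted. The lack of overlap is therefore not read as a trait of the members. c3a.1, at 936, 829 and 925 CPM, rose by 3.46 ± 0.11 on the log2 scale, c4b by 3.51 ± 0.16, c8a by 3.96 ± 0.17, c9 by 2.35 ± 0.15, cfb by 2.14 ± 0.10 and c5 by 1.37 ± 0.13. The largest of the adjusted p-values was that of c5, 1.04e-23. All 9 calls held in every setting and with each library left out, and over all genes tested the median was -0.32.

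At this point cfh, the regulator, was the highest member, followed by cfb at 938, 907 and 964 CPM and c3a.1. In each of the 3 libraries of 3dpa.HC the level of cfh exceeded that of c3a.1, whereas in TU hepatocyte-like cells c3a.1 was the higher in all 6. The ratio of cfh to c3a.1 UMIs was 1.18 to 1.26 in 3dpa.HC, 0.138 to 0.193 in TU hepatocyte-like cells, 0.230 in the GFP+ library and 0.155 to 0.261 in mock.HC. c9 was among the lowest members, at 122, 109 and 120.4 CPM, with 0.130 to 0.132 UMIs per UMI of c3a.1 against 0.276 to 0.394 in TU hepatocyte-like cells.

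Within the 3 dpa libraries, 8 of 9 members were higher in hepatocyte-like than in BEC-like cells and 0 lower, where 10.6% of 7840 genes were higher and 17.2% lower. Both sums came from the same libraries, but the test had no library term and did not pair them. With the replicate block 8 members were higher as well. The differences ran from 0.83 (c4b) to 2.64 (c3a.2) on the log2 scale, with c3a.1 at 1.90 ± 0.14 (adjusted p = 1.66e-39) and cfh at 1.80 ± 0.14 (adjusted p = 3.59e-38). c5 was not called, at 109.9, 98.4 and 103 CPM in 3dpa.HC and at 82.9, 112 and 96.3 CPM in 3dpa.BEC, and these overlapped. Its difference of 0.05 ± 0.21 (adjusted p = 0.891) passed the test with default TMM (log2 0.72, adjusted p = 0.00173), DESeq2 (log2 0.85, adjusted p = 5.69e-05) and clustering resolution 1 (log2 0.67, adjusted p = 0.0216). The 10 hepatocyte markers summed to 20900 to 23490 CPM in 3dpa.BEC, against 1859 to 2534 CPM in mock.BEC, and the 8 BEC markers summed to 9780 to 9849 CPM in 3dpa.HC and to 1674 to 1904 CPM in 7dpa.HC. The part of this in the differences was not tested. BEC-like cells remained few, with 248 at 3 dpa and 61 at 7 dpa, and held c3a.1 at 212, 170.1 and 286 CPM and then at 560.0, 669 and 452 CPM. Members' background in the 3 dpa libraries was close to 3dpa.HC, with cfh at 953, 939.6 and 974 CPM and c3a.1 at 819, 789 and 852 CPM.

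**Figure D4:**
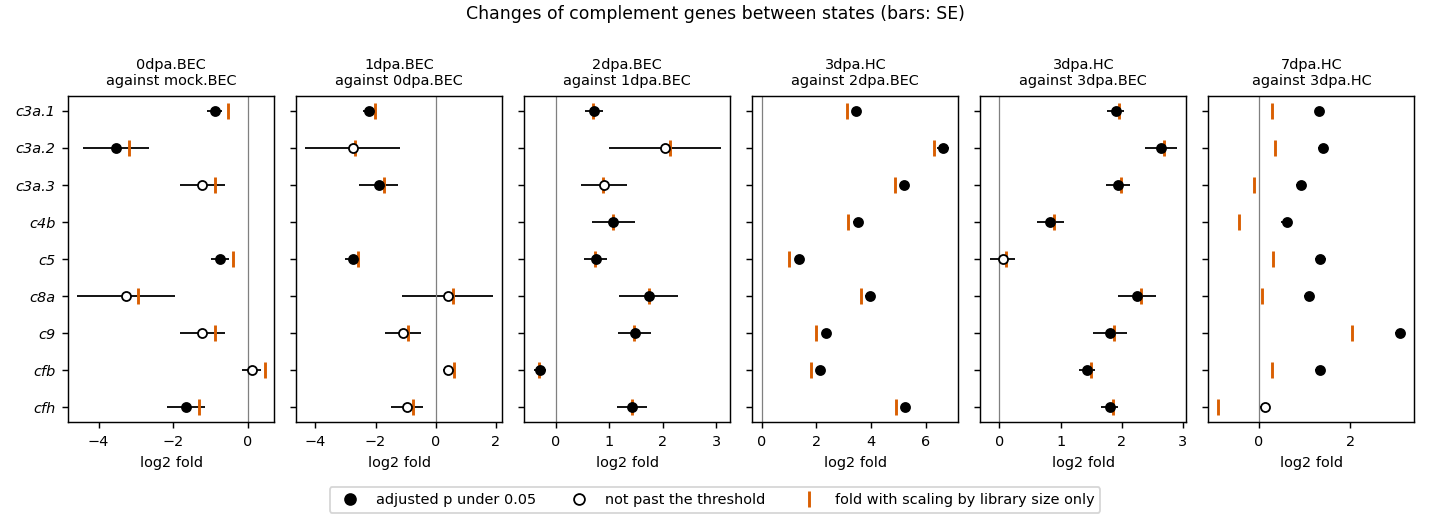
Log2 changes of the 9 complement genes in 6 comparisons of states, with SE bars; filled points passed an adjusted p of 0.05, open points did not, and orange marks give the change with scaling by library size only. c4b is not drawn where a group had 0 UMIs; all 9 genes rose from 2dpa.BEC to 3dpa.HC, and c9 stood out from 3dpa.HC to 7dpa.HC (3.08, or 2.04 by library size).

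From 3 to 7 dpa, c9 had the largest change of the 9 genes in hepatocyte-like cells. c9 was at 122, 109 and 120.4 CPM in 3dpa.HC and at 490.3, 487 and 474 CPM in 7dpa.HC, without overlap. The log2 change was 3.08 ± 0.11 (adjusted p = 1.94e-157), and the call held with all scalings, at 2.04 by library size only, 2.45 by default TMM and 2.93 by DESeq2. c9 had 0.430 to 0.465 UMIs per UMI of c3a.1 at 7 dpa, the highest ratio of all hepatocyte-like states, and its share of the members' UMIs went from 2.98% ± 0.0805 to 11.5% ± 0.339.

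cfh had lower levels at 7 dpa. It was at 1104, 1047 and 1167 CPM in 3dpa.HC and at 577, 577 and 615 CPM in 7dpa.HC, also without overlap. The test did not pass (cfh log2 0.13 ± 0.10, adjusted p = 0.28), while scaling by library size gave -0.91 (adjusted p = 1.33e-18), default TMM -0.50 (adjusted p = 1.02e-05) and DESeq2 -0.02. Its ratio to c3a.1, which needs no scaling, went from 1.18 to 1.26 at 3 dpa to 0.524 to 0.557 at 7 dpa. The ratio was lower in each 7 dpa library than in each 3 dpa library, while the direction of cfh itself depended on the scaling.

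The other 7 members also passed the test between 3 and 7 dpa, so that 8 of 9 were higher and 0 lower, where 27.1% of 7840 genes were higher and 25.5% lower. c3a.1 went from 936, 829 and 925 CPM to 1100.5, 1049 and 1104 CPM (log2 1.31 ± 0.10, or 0.27 by library size only). cfb went from 938, 907 and 964 CPM to 1104, 1162 and 1163 CPM (1.33 ± 0.10, or 0.29), c5 from 109.9, 98.4 and 103 CPM to 131, 133 and 120.2 CPM (1.34 ± 0.12, or 0.30) and c3a.2 from 188, 198 and 215 CPM to 264, 243 and 259.5 CPM (1.39 ± 0.11, or 0.35). These 4 kept their direction under all scalings, and c3a.3 was the member whose levels overlapped between 3dpa.HC and 7dpa.HC. c8a (1.09 ± 0.11) was 0.06 by library size only (adjusted p = 0.683), while c3a.3 (0.92 ± 0.11) turned to -0.12 (adjusted p = 0.356) and c4b (0.60 ± 0.12) to -0.43 (adjusted p = 0.000246). The median of all genes was 0.10 with the scaling used, -0.89 by library size, -0.50 by default TMM and -0.02 by DESeq2, and the 10 most abundant genes took 29.8% to 30.02% of UMIs in 3dpa.HC and 39.3% to 41.1% in 7dpa.HC.

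Background moved with these states. At 7 dpa background c9 was at 503, 539.6 and 499.9 CPM and cfh at 604, 554 and 581 CPM, close to the hepatocyte-like sums. Hepatocyte-like cells were 2239 of the cells called at 7 dpa. Thinned to 500 UMIs, c9 was detected in 4.71% to 5.30% of 3dpa.HC and in 19.2% to 21.5% of 7dpa.HC cells, and cfh in 38.7% to 41.5% and 23.0% to 27.2%. In macrophage-like cells, which stand in for cells that should lack c9, it was detected in 0% to 3.03% at 3 dpa and in 21.4% of the 14 cells of the 1 library with at least 10 such cells at 7 dpa. The latter are 3 cells. At 7 dpa c9 was also detected in 0% to 6.25% of BEC-like cells (2 of 61 cells, 3 libraries, median depths of 1166 to 1454 UMIs) and in 1 of 10 lymphocyte-like cells of 1 library. The comparison types at 7 dpa thus hold few cells, and whether the share in 7dpa.HC exceeded background was not tested. Median depths were 4431 to 5102 UMIs in 3dpa.HC, 1852 to 2138 in 7dpa.HC, and 2198 to 2325 and 1496 in the macrophage-like cells, and unthinned median shares of c9 were 37.4% in 3dpa.HC, 56.5% in 7dpa.HC, 3.23% and 21.4%.

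**Figure D5:**
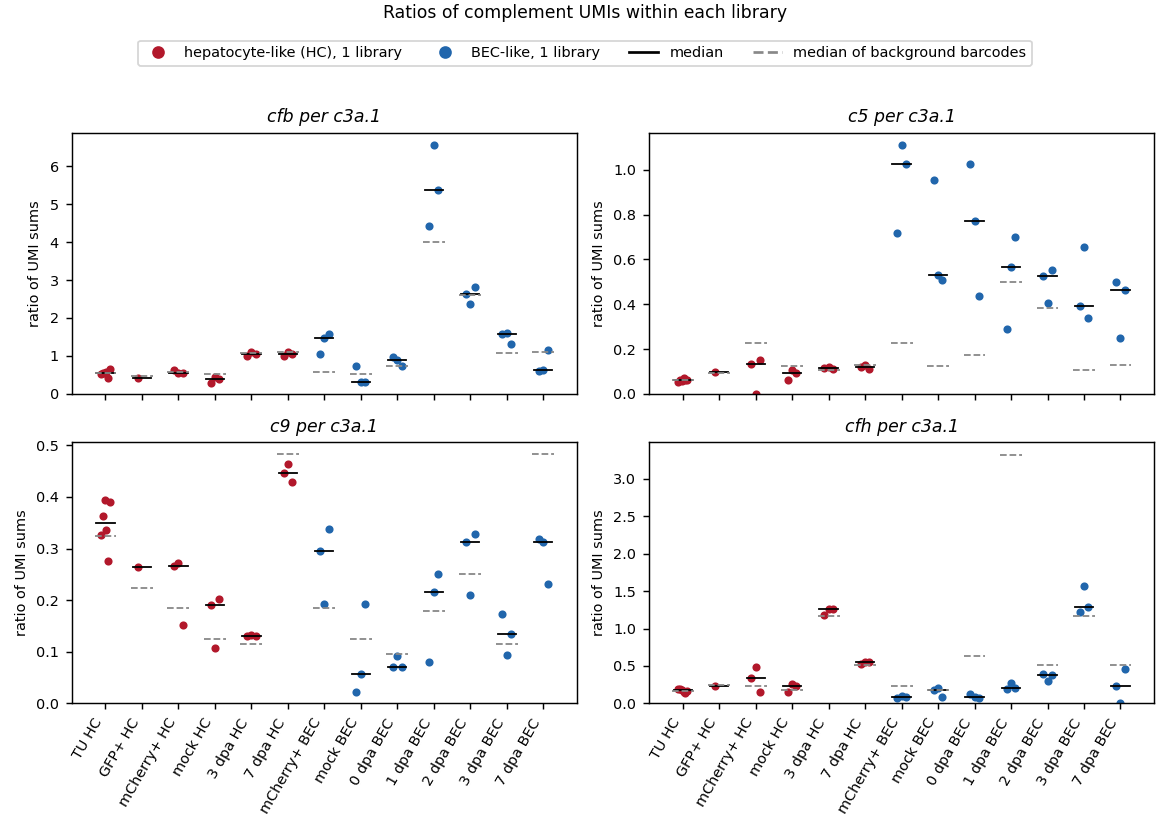
Ratios of UMI sums within each library for cfb, c5, c9 and cfh, each per UMI of c3a.1, in hepatocyte-like (HC) and BEC-like cells on linear axes. Points are libraries, solid bars medians and dashed bars background medians; cfb per c3a.1 peaks in 1dpa.BEC (4.42 to 6.57), cfh per c3a.1 is above 1 in 3dpa.HC, and c9 per c3a.1 rises from 0.130 in 3dpa.HC to 0.446 in 7dpa.HC (medians).

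Whether 7dpa.HC had the complement levels of uninjured hepatocyte-like cells depended on the scaling. In level, c3a.1 of 7dpa.HC (1100.5, 1049 and 1104 CPM) was below uninjured mCherry+ (1962, 2096 and 2158 CPM) and mock hepatocyte-like cells (5303, 4979.8 and 3671 CPM), and did not overlap either. cfb (1104, 1162 and 1163 CPM) overlapped with the uninjured mCherry+ values. Against uninjured mCherry+ hepatocyte-like cells, 1 of 9 members was higher, cfb (log2 0.75 ± 0.21, adjusted p = 0.00831), and 0 lower, where 4.59% and 3.06% of 7840 genes were. cfb was at -0.05 by library size only, and its call was lost without uninjured mCherry+ replicate 2 (adjusted p = 0.0507). In that setting cfh was called higher instead (log2 1.11, adjusted p = 0.0437). With library size only cfb was not called and c3a.1 was lower (-0.93, adjusted p = 4.6e-05), as it was with names from raw counts (-1.21, adjusted p = 2.54e-05), where c4b was also lower (-2.17, adjusted p = 0.00655), and at clustering resolution 1 (-0.96, adjusted p = 1.14e-05). Default TMM gave 8 of 9 and DESeq2 9 of 9 members higher, and with them 1325 and 2783 of all 7840 genes, whose medians were 2.07 and 1.69 (0.73 with the scaling used). Under default TMM c3a.1, at 1.41, lay below that median.

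Against mock.HC, a comparison added after the levels had been seen, 5 of 9 members were lower and 0 higher (7.9% and 4.95% of 7840 genes), namely c3a.1 (log2 -1.41 ± 0.13), c4b (-2.11 ± 0.28), c5 (-0.97 ± 0.32), c3a.2 (-0.80 ± 0.24) and c3a.3 (-0.78 ± 0.23). With DESeq2 8 of 9 were higher, and the direction of c3a.1 (0.67), c3a.2 (1.28), c3a.3 (1.29) and c5 (1.11) turned. Over all genes DESeq2 gave 2241 of 7840 higher and 162 lower with a median of 1.22, above the values of c3a.1 and c5, against a median of 0.44 with the scaling used. With library size only 8 of 9 members were lower, where 996 of 7840 genes were lower and 217 higher (median of all genes -0.046). Default TMM gave 6 members higher and 1 lower, where 1538 of 7840 genes were higher and 261 lower (median of all genes 1.73). Without mock replicate 2 the calls of c3a.2 (adjusted p = 0.523) and c5 (adjusted p = 0.277) were lost, which left 3, without mock replicate 1 those of c3a.2 (adjusted p = 0.0733) and c3a.3 (adjusted p = 0.578), and without mock replicate 3 that of c5 (adjusted p = 0.185). Both comparisons rest on 39 and 100 cells on the uninjured and mock side, with 15289 to 35144 UMIs per sum, and share the 7 dpa libraries. Free of scaling, c9 per c3a.1 was 0.430 to 0.465 in 7dpa.HC, 0.151 to 0.273 in uninjured mCherry+ and 0.108 to 0.202 in mock hepatocyte-like cells, and cfh per c3a.1 0.524 to 0.557, 0.151 to 0.485 and 0.155 to 0.261.

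The other pathway genes moved as follows over the course, with 26 tested. In 0dpa.BEC against mock.BEC 4 of 26 were lower, a share near the 17% of all genes, and 0 higher (5.26% of all genes). The 4 were mbl2, at 0 UMIs at 0 dpa, c1qb (log2 -2.97 ± 0.85), cfd (-2.60 ± 0.71) and cfhl4 (-2.13 ± 0.64), each from 11 to 21 UMIs in mock.BEC. In 1dpa.BEC against 0dpa.BEC 4 of 26 were higher and 3 lower, near the shares of all genes (10.5% and 14.5%), among them the membrane attack component c7b, which fell from 31.0 to 36.8 CPM to at most 2.65 CPM (log2 -4.58 ± 0.75, adjusted p = 2.74e-08), and c1qb, a C1q chain, which rose (2.98 ± 0.67, adjusted p = 0.00011). The 6 macrophage markers summed to 116.4 to 201.3 CPM in 0dpa.BEC and to 463.1 to 649.5 CPM in 1dpa.BEC. Background held them at 748.1 to 919.8 CPM and then at 5816 to 6375 CPM. Whether the c1qb UMIs came from macrophages was not tested. At 2 dpa 7 of 26 rose and 4 fell (15.1% and 13.3% of all genes), led by a2ml, a protease inhibitor kin to C3 (log2 5.53 ± 0.62, from 1 to 180 UMIs), cfhl4 (4.13 ± 0.41), serping1 (3.18 ± 0.32) and cfhl2 (2.68 ± 0.77), with adjusted p-values of 1.87e-17, 1.26e-21, 1.43e-21 and 0.00281. Against mock.BEC, 2dpa.BEC had 3 of 26 higher and 12 lower, where 13.4% and 34.4% of all genes were.

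In 3dpa.HC against 2dpa.BEC 20 of 26 rose and 4 fell (19.9% and 35.7% of all genes), with c1r (7.6 ± 0.32), a C1 protease, c8g (6.61 ± 0.27), cfhl5 (5.80 ± 0.38) and masp2 (5.59 ± 0.44), the lectin pathway protease, in front (log2, adjusted p at most 4.56e-35). Against 3dpa.BEC 14 were higher and 0 lower (10.6% and 17.2% of all genes), led by cfhl5 (4.18 ± 0.84) and c3a.6 (3.47 ± 0.94), each with 1 UMI in 3dpa.BEC. From 3dpa.HC to 7dpa.HC 18 were higher and 1 lower (27.1% and 25.5% of all genes). cfhl3 (3.73 ± 0.25), c4 (3.41 ± 0.25), masp2 (2.88 ± 0.15) and cfhl5 (2.72 ± 0.14) led, and masp2 rose from 16.9 to 20.0 CPM to 59.7 to 78.5 CPM. Against uninjured mCherry+ hepatocyte-like cells 5 were higher and 2 lower in 7dpa.HC (4.59% and 3.06% of all genes), and against mock.HC 4 were higher and 6 lower (4.95% and 7.9%), both subject to the scaling described above. Against background, 18, 13, 11 and 10 of 27 were lower in mock, 0, 1 and 2 dpa BEC-like cells, where 24.8%, 25.4%, 34.1% and 38.1% of all 8495 genes were lower, so that the share at 2 dpa was near that of all genes. Higher were 0, 0, 2 and 2 of 27, against 8.99%, 9.36%, 15.1% and 12.8% of all genes.

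Over the means of 11 hepatocyte-like and BEC-like states, the members resembled each other to different degrees. The Pearson correlation of log2(CPM + 10) was highest between c3a.2 and c3a.3 (0.983) and lowest between c5 and cfb (0.285), and c5 was also low with cfh (0.287) and c8a (0.327). Among 12833 other genes, the closest to c3a.1 were gpx4a (0.973), ucp1 (0.963) and cyp4v7 (0.952), to c9 C20H6orf58, plg and prg4b (each 0.96), and to cfb f7i (0.94), sod3a (0.927) and c3b.2 (0.925). These values describe 11 state means that share cell type, depth and sort, and carry no test.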

How the data were processed

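The authors mapped Drop-Seq reads to GRCz11 with Drop-Seq tools and STAR 2.5.3, checked them with FastQC 0.11.2, and deposited raw UMI counts per gene and barcode for 5000 barcodes in each of 28 libraries. Barcodes above their library's mean total were called cells (25842 called, 25777 distinct, 53 found in 2 or more libraries) and the rest kept as background. For clustering and naming only, the 95th percentile of each gene's background counts was subtracted. Clusters (leidenalg 0.10.2, 2000 variable genes, 30 components, 20 neighbours, resolution 2) left out complement genes and were named from marker lists by thresholds set after clusters had been seen, so names may differ from the study's. Doublets were kept. Raw counts were summed per library and type (at least 10 cells) and tested with edgeR 4.0.16 (R 4.3.3), quasi-likelihood, Benjamini-Hochberg adjustment, threshold 0.05, TMMwsp factors over genes of at least 50 mean CPM. The SE is the size of the log2 change over the square root of F. All sorted BEC-like and hepatocyte-like sums, the GFP+ library included, shared 1 fit, and comparisons with background and within TU livers had library as a block. The filter on low counts ran over all states of a fit, so a gene could pass it through states other than those compared. The code was tested on simulated data. Alternatives were library size only, default TMM, DESeq2 1.42.0, no filter, names from raw counts, resolution 1, removal of the top 5% of doublet scores, cells of at least 500 UMIs, a replicate block, only the compared states, and leaving out each library. Bounds for a group at 0 UMIs use 3 counts over the group, and cover counting error only.

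Members and lists were chosen with earlier results of these data known. All members with a row are named. Of the other pathway genes at most 4 per comparison were picked, those past the threshold with the largest change. Many of these are left out of the text, among them all those of several comparisons. Likeness was limited to genes over 10 CPM in some state, a restriction added later. No sequences are printed, and a planned search of promoter motifs was not run. With 3 libraries against 3, an exact permutation test cannot go below p = 0.1, so none was used.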

Additional observations from a re-analysis of the deposited data

Results flagged for a closer look

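The level of c3a.1 and cfb in BEC-like cells relative to background barcodes of the same library lay on opposite sides of 1 at different time points, in all 3 libraries of each group named. The median ratio of c3a.1 was 0.2977 in mock, 1.839 at 1 dpa and 0.8495 at 2 dpa, so it lay below 1 in mock and at 2 dpa and above 1 at 1 dpa. For cfb the median ratio was 0.1973 in mock and 0.8739 at 2 dpa, below 1, and 1.434 at 0 dpa and 2.339 at 1 dpa, above 1. These are ratios of CPM, and at 0 and 2 dpa the side of 1 depended on the scaling. At 0 dpa the log2 difference of cfb was -0.35 (adjusted p = 0.111) with the scaling used, 0.62 by library size only, 0.012 with default TMM and 0.16 with DESeq2. At 2 dpa it was -0.21, and default TMM (0.37) and DESeq2 (0.33) put cfb above background, as default TMM did c3a.1 (0.33). The difference between time points was not tested.

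Some cells outside the comparisons carried a member above the background of their library and above every BEC-like and hepatocyte-like sum of their group, in all 3 libraries. These were c4b in unnamed cells at 2 dpa (median 118.1 CPM), cfh in macrophage-like cells at 1 dpa (median 162.5 CPM) and cfh in unnamed cells of the uninjured mCherry+ sort (median 1225 CPM). The unnamed sums at 2 dpa held fibroblast markers at 382 to 669 CPM and stellate markers at 102 to 351 CPM. Their background held at most 43.0 and 35.3 CPM. Hepatocyte markers were also above background there, at 4985 to 6645 against 2944 to 2967 CPM. Which of these cells held c4b was not tested. Among 27 combinations of gene and cell type in the TU livers, no library stood apart by Dixon's test, which flags about 1 group in 20 by chance.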

How the results depend on the processing

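All 9 members were higher in 3dpa.HC than in 2dpa.BEC under every alternative, and c9 was higher in 7dpa.HC than in 3dpa.HC under each. For 0dpa.BEC against mock.BEC (5 members called), 3 were called with library size only, 2 with default TMM, 3 with DESeq2 and 1 with only the compared states, where 3 members could be tested (c3a.1, c5 and cfb) and c5 lost its call. For 7dpa.HC against uninjured mCherry+ hepatocyte-like cells (1 called), 8 were called with default TMM, 9 with DESeq2, 2 with names from raw counts (both lower, c3a.1 and c4b) and 0 with only the compared states. For 7dpa.HC against mock.HC (5 called, all lower), 8 were lower with library size only. The direction turned with DESeq2 (8 higher) and with default TMM (6 higher and 1 lower). Restricting to cells of at least 500 UMIs left 1 mock sum of 12 cells, so no count is given for that setting. DESeq2 called 4 members between 0dpa.BEC and background, 1 higher and 3 lower (7 called, 1 higher and 6 lower). Default TMM called 5 between 2dpa.BEC and background, 4 higher and 1 lower (3 called, all lower).

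Leaving out single libraries gave 4 to 5 members for 0dpa.BEC against mock.BEC, 2 to 4 for 1dpa.BEC against 0dpa.BEC, 4 to 7 for 2dpa.BEC against 1dpa.BEC, 5 to 7 for 2dpa.BEC against mock.BEC, 9 to 9 for 3dpa.HC against 2dpa.BEC, 8 to 8 for 3dpa.HC against 3dpa.BEC and against 7dpa.HC, 1 to 1 for 7dpa.HC against uninjured and 3 to 5 against mock.HC. Against background it gave 8 to 8 in mock, 4 to 7 at 0 dpa, 2 to 3 at 1 dpa and 2 to 2 at 2 dpa, and in TU hepatocyte-like cells 7 to 9 against other types and 5 to 7 against background. For 7dpa.HC against uninjured mCherry+ cells the 1 member was cfb, but cfh without uninjured mCherry+ replicate 2.

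Directions turned as follows, on the log2 scale. From 3dpa.HC to 7dpa.HC, c3a.3 was -0.12, c4b -0.43 and cfh -0.91 with library size only, c4b -0.026 and cfh -0.50 with default TMM, c4b -0.053 and cfh -0.27 with names from raw counts, and c4b -0.20 and cfh -0.35 at resolution 1. Against uninjured mCherry+ cells, c3a.1 of 7dpa.HC was 1.41 with default TMM and 2.60 with DESeq2, c4b 2.13 with DESeq2, and cfb -0.055 with library size only, -0.25 with names from raw counts and -0.076 at resolution 1. Against mock.HC, default TMM and DESeq2 gave 0.036 and 0.67 for c3a.1, 0.64 and 1.28 for c3a.2, 0.66 and 1.29 for c3a.3, 0.48 and 1.11 for c5, 1.45 and 2.07 for c9, and 1.37 and 2.00 for cfh, and cfb was -0.59 with library size only, -0.59 with names from raw counts and -0.49 at resolution 1. cfh was 0.15 in 2dpa.BEC against mock.BEC with default TMM. Against background, library size only gave 0.73 for c5 in mock, 0.42 for c3a.1 and 0.62 for cfb at 0 dpa, and at 2 dpa default TMM gave 0.33 for c3a.1 and 0.37 for cfb, and DESeq2 0.33 for cfb. The cause was not tested.

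With the replicate block the counts of members called were 5, 3, 7, 6, 9, 8, 8, 1 and 5 for the 9 comparisons of sorted states, and no call changed. Over 153 pairs of sums with the same number the median correlation of their deviations was -0.000216 (range -0.0452 to 0.0508), and over 306 other pairs -2.72e-05. Some of these sums hold few UMIs, and counting error could hide a shared effect. Whether equal numbers pair the libraries is therefore not settled.

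Sums of few UMIs limit the BEC-like values of c3a.2, c4b and c8a at 0 and 1 dpa and all hepatocyte-like values of the uninjured mCherry+ and mock groups. Background close to the hepatocyte-like sums limits what can be read from 3 and 7 dpa levels, and 1 GFP+ library gives no spread. Whether that background was free RNA or cells of low depth was not tested.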
